A study of Mus musculus with 8 samples.

Results

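The matrix metalloproteinases (MMP), the ADAMTS proteinases and the tissue inhibitors of metalloproteinases (TIMP) were described across 8 RNA sequencing libraries of mouse bone marrow derived macrophages. Members were the protein-coding genes of the deposited table whose GENCODE M21 symbol starts with Mmp, Adamts or Timp followed by a digit. This gave 45 genes, 22 MMP, 19 ADAMTS and 4 TIMP, of 55421 gene identifiers in all, of which 21899 were protein-coding. Mmp1a carries such a symbol but is annotated as a polymorphic pseudogene, was listed at 0 in every library and was left out. The libraries were 4 labelled as Baf60a knockout (Baf60a KO) and 4 labelled as wild type (WT), all primary cells from marrow of C57 mice at day 7 of macrophage differentiation. Baf60a, the protein that Smarcd1 encodes, is part of the SWI/SNF chromatin remodelling complexes. The sources used here do not give the age of the mice, the way Baf60a was deleted or whether libraries came from separate mice.

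MMP and ADAMTS proteins are zinc-dependent proteinases made as inactive proforms, and most are secreted or held at the cell surface, where they cleave collagens, elastin, proteoglycans and other matrix proteins. ADAMTS proteins differ from MMPs by their thrombospondin repeats and ancillary domains, which direct them to large matrix substrates such as aggrecan, versican and procollagens. TIMPs bind the active site of these enzymes and block it, and TIMP3 stands apart from its relatives in that it binds the matrix and also inhibits several ADAM and ADAMTS enzymes. Macrophages are known as a source of MMP12, the macrophage elastase, and of other proteinases that remodel tissue.

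The feature that unites MMP and ADAMTS enzymes is a short zinc-binding site with 3 histidines. A search of GENCODE M21 coding sequences for histidine at the first, the fifth and the eleventh of 11 codons, glutamate at the second and glycine or asparagine at the eighth found this site in 40 of the 41 enzymes, the exception being Adamts8, and in all 23 enzymes that passed the filter on low values. The eighth codon read glycine in 35 of them and asparagine in 5, namely Adamts1, Adamts4, Adamts9, Adamts15 and Adamts20. The 33 coding bases of the site are shown for the 6 members that differed between the groups and for Mmp12, the most abundant member, 5′ to 3′ on the coding strand, with the 3 histidine codons and the eighth codon in capitals.
Adamts1: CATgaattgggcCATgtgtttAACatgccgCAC
Adamts4: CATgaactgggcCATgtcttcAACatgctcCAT
Adamts5: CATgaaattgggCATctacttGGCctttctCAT
Adamts12: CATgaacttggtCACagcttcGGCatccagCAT
Adamts14: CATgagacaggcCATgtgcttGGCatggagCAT
Mmp14: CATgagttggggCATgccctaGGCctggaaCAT
Mmp12: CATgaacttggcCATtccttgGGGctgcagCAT
Among the 21 pairs of these sites, Adamts1 and Adamts4 shared the most bases, 27 of 33, and the other pairs shared between 19 and 25. The proteoglycan-cleaving enzymes Adamts1 and Adamts4 thus carried the asparagine codon, while Adamts5, which acts on the same substrates, carried the glycine codon of the MMPs.

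Values are TPM, transcript abundances corrected for length and scaled so that each library sums to 1000000, so the read depth of a library is unknown and no counting interval can be given. The number of genes over 1 TPM was 13727 to 14027. Smarcd1 averaged 10.5 ± 0.447 TPM in Baf60a KO and 14.8 ± 0.998 TPM in WT (SD, n = 4 each) and fell by 0.47 on the log2 scale (limma adjusted p = 0.00756), with no overlap between groups. Processed pseudogenes held 7.79% to 8.72% of TPM in the Baf60a KO libraries. In WT they held 7.05% and 7.93% in replicates 1 and 2 but 12.4% and 12.6% in replicates 3 and 4, so the calls of the members are also given without these 2 libraries. All 10 macrophage markers passed the filter on low values. Transcripts of stromal cells were also abundant in every library, with Col1a1, a collagen chain typical of fibroblasts, at 1873 ± 54.0 TPM in Baf60a KO and 1534 ± 76.1 TPM in WT (SD, n = 4 each).

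Of the 45 members, 26 had TPM over 1 in at least 4 libraries and were tested, and each of these was over 1 TPM in all 8 libraries. The TPM of these members spanned close to 3 orders of magnitude. Mmp12 was the most abundant, at 640 ± 52.0 TPM in Baf60a KO and 464 ± 82.1 TPM in WT. Timp2, Timp1, Mmp14 and Mmp2 followed in that order of mean TPM. Mmp23, Timp3 and the most abundant ADAMTS, Adamts2, came next, and Adamts9 was the lowest tested member at 1.31 ± 0.0779 TPM in Baf60a KO and 1.22 ± 0.1005 TPM in WT (SD, n = 4 each).

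**Figure D1:**
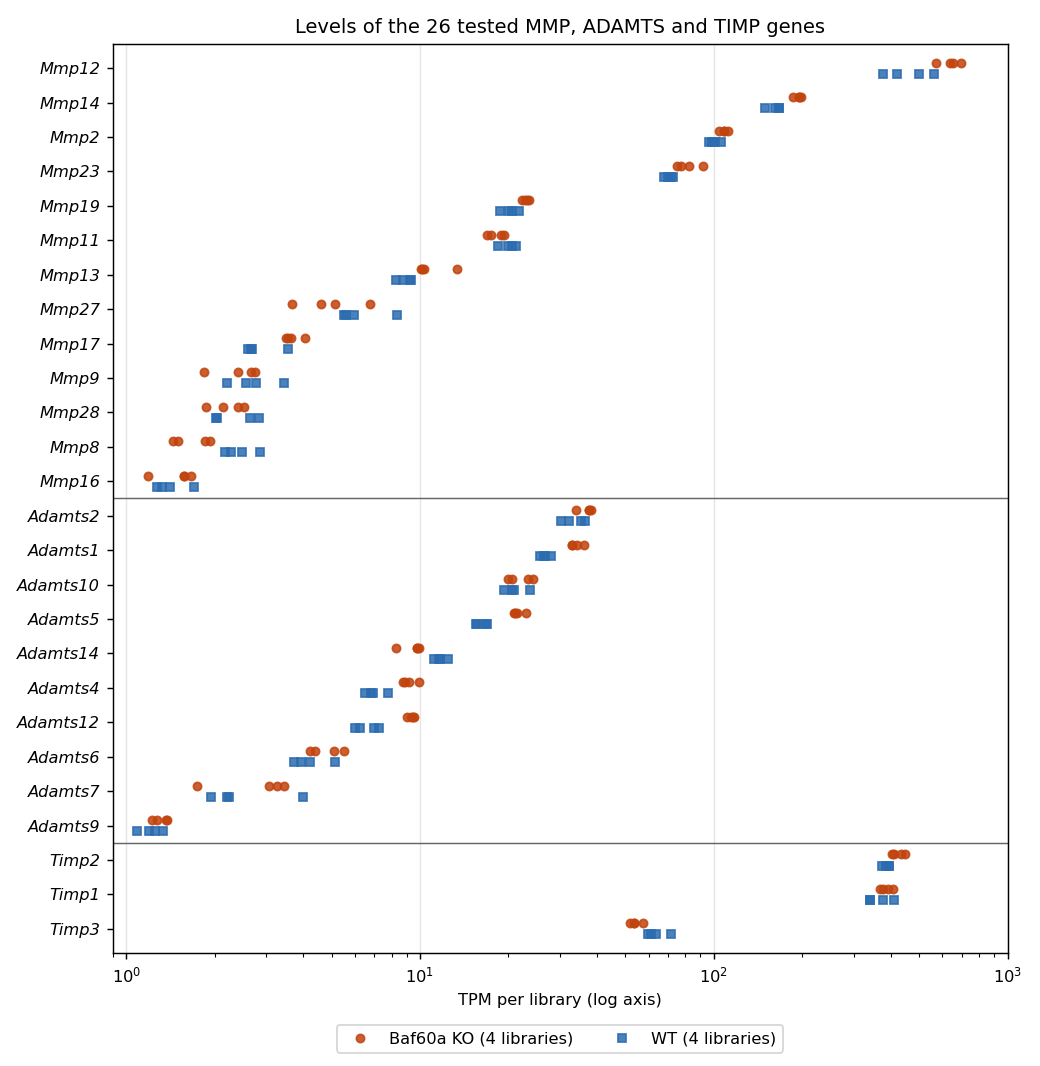
TPM of each of the 26 tested members in every library on a log axis, grouped by family and ordered by mean TPM, with circles for the 4 Baf60a KO libraries and squares for the 4 WT libraries. Mmp12 reached 696.02 TPM in Baf60a KO replicate 1, and the lowest tested values were near 1 TPM.

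In the comparison of Baf60a KO with WT, 5 members rose and 1 fell. Adamts1, Adamts4, Adamts5, Adamts12 and Mmp14 were higher in Baf60a KO and Adamts14 was lower. These 6 are 23.1% of the 26 tested members, against 5.61% of all 13933 genes tested that were called at adjusted p under 0.05 in limma. The 5 that rose stand beside 4.40% of all genes and the 1 that fell beside 1.21%. Groups did not overlap for 13 of the 26, 10 higher and 3 lower in Baf60a KO, against 15.8% of all genes, 11.9% higher and 3.96% lower. The median log2 fold change of the tested members was 0.12, against 0.03 over all genes, and 19 of the 26 lay above 0, as did 57.5% of all genes. Higher calls outnumbered lower calls across all genes, 613 against 169, and this split moved to 516 against 404 with median-of-ratios scaling, 440 against 254 with quantile normalization and 598 against 321 with TPM rescaled over protein-coding genes. Without WT replicates 3 and 4, Adamts1, Adamts5, Adamts12 and Mmp14 were called and Adamts4 and Adamts14 were not. The median log2 fold change of the tested members was then 0.07, against 0.01 over all genes.

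**Figure D2:**
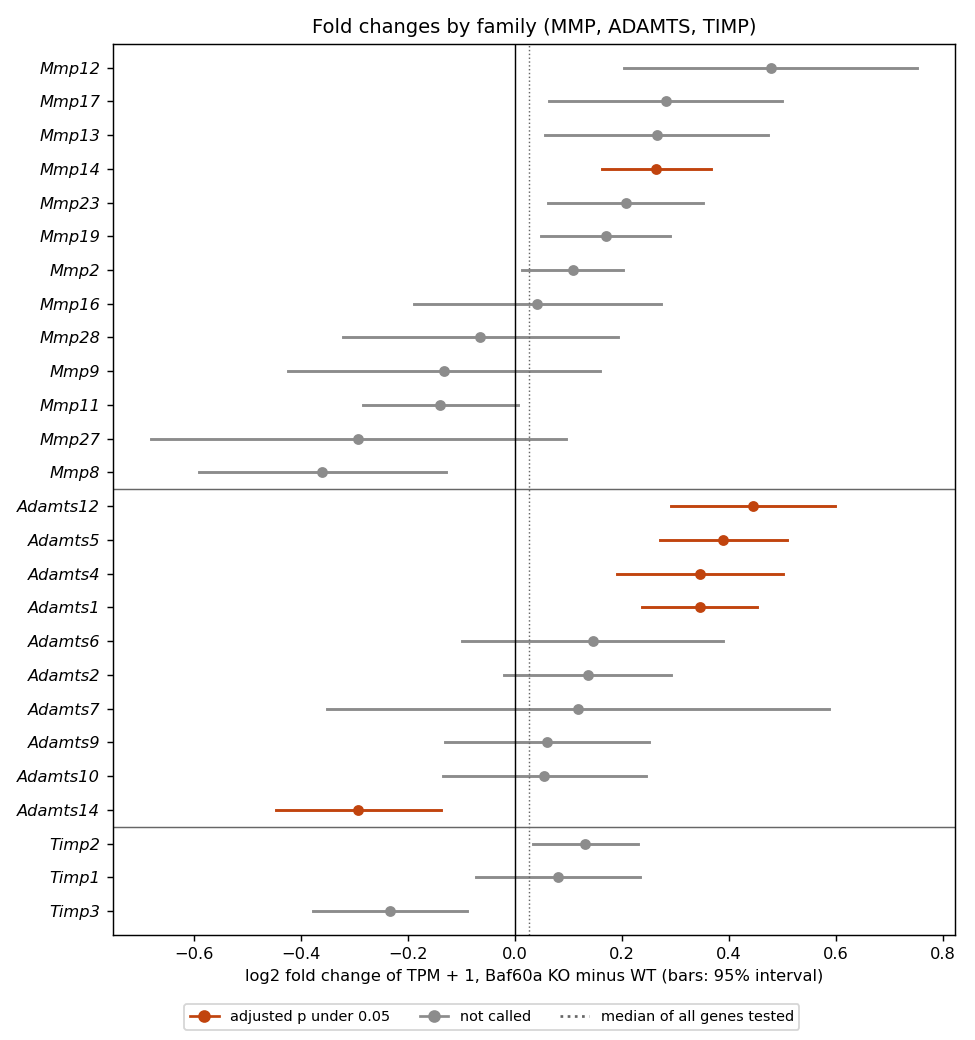
Log2 fold change of TPM + 1 (Baf60a KO minus WT) of each tested member with its 95% interval from limma, by family, with called members coloured and the median of all genes as a dotted line. Adamts12, Adamts5, Adamts4 and Adamts1 lie at 0.34 to 0.44, and Adamts14, at -0.29, is the called member below 0.

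The calls fell mostly among the ADAMTS genes. Of 10 tested ADAMTS members, 4 rose, 1 fell and 5 were not called, with a median log2 fold change of 0.14 and 9 of 10 above 0. Among the 13 tested MMP members, 1 rose and 12 were not called, with a median of 0.11. Of the 3 tested TIMP members, 0 were called, and the median was 0.08.

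The ADAMTS enzymes that cleave aggrecan, versican and other proteoglycans included Adamts1, Adamts4 and Adamts5, which were all higher in Baf60a KO. This role group has 7 members, of which 4 were tested and 3 rose. Adamts1, a secreted proteinase known for versican cleavage and for roles in ovulation and vessel growth, lies on chromosome 16 at 85793827 to 85803113 (GRCm38). It had 34.35, 32.97, 36.03 and 32.95 TPM in Baf60a KO replicates 1 to 4, against 26.49, 27.82, 26.60 and 25.55 TPM in WT. Every Baf60a KO library was above every WT library. The log2 fold change was 0.34 with an SE of 0.047 (95% interval 0.24 to 0.45, limma adjusted p = 0.00873).

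Adamts5, the main aggrecanase of mouse cartilage, is the neighbour of Adamts1 on chromosome 16, at 85856173 to 85901828. The genes are 53.1 kb apart, with 1 annotated gene between them that does not code for protein. Adamts5 had 21.46, 21.01, 22.98 and 20.94 TPM in Baf60a KO, against 15.55, 16.82, 16.97 and 15.68 TPM in WT. Its groups were as cleanly separated as those of Adamts1, and the fold change was of similar size at 0.39 (SE 0.052, limma adjusted p = 0.00829). Both neighbours had their highest value in Baf60a KO replicate 3.

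Adamts4, an aggrecanase on chromosome 1 (171250421 to 171260637), had 8.92, 9.90, 9.20 and 8.74 TPM in Baf60a KO, against 6.52, 7.81, 6.94 and 6.83 TPM in WT. The groups did not overlap, and the log2 fold change was 0.35 with an SE of 0.068 (limma adjusted p = 0.0285). The call was less stable than those of Adamts1 and Adamts5. It was lost when any Baf60a KO library, WT replicate 1 or WT replicate 4 was left out, at adjusted p of up to 0.0830, and at 0.0879 without WT replicates 3 and 4. Adamts9, a relative that also cleaves versican, was the fourth tested gene of the group, with a log2 fold change of 0.06 and adjusted p = 0.749 in limma. Adamts8, Adamts15 and Adamts20 were all under 0.1 TPM on average in both groups.

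Of Adamts12 and Adamts7, which resemble each other in domain structure and are both known to cleave cartilage oligomeric matrix protein, Adamts12 rose and Adamts7 was not called. Adamts12 (chromosome 15, 11064790 to 11349231) had 9.48, 9.51, 9.04 and 9.31 TPM in Baf60a KO, against 6.96, 7.25, 5.99 and 6.25 TPM in WT. Its log2 fold change, 0.44 (SE 0.067, 95% interval 0.29 to 0.60, limma adjusted p = 0.0121), was the largest of the called members. The Baf60a KO libraries had an SD of 0.215 TPM, and each lay above every WT library. Adamts7 ran between 1.74 and 3.45 TPM in Baf60a KO and between 1.94 and 4.01 TPM in WT, with overlapping groups and a limma adjusted p of 0.803.

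Adamts1, Adamts5 and Adamts12 were the members whose calls held in all 8 fits that left out 1 library and in all 11 other alternatives run, with adjusted p of at most 0.0456, 0.0393 and 0.0491 in limma.

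The procollagen N-propeptidases cut the amino-terminal propeptide from fibrillar procollagens, a step that lets collagen fibrils assemble. Adamts14 (chromosome 10, 61197112 to 61273438) was the member that fell. It had 9.75, 9.89, 8.28 and 9.74 TPM in Baf60a KO, against 11.69, 12.47, 11.17 and 11.63 TPM in WT. The groups did not overlap, and the log2 fold change was -0.29 with an SE of 0.068 (limma adjusted p = 0.0428). The call was close to the threshold: it was lost when any of the 8 libraries was left out, at adjusted p of 0.0545 to 0.1002, and at 0.0792 without WT replicates 3 and 4. Adamts2, the most abundant enzyme of this kind, had 36.9 ± 1.89 TPM in Baf60a KO and 33.5 ± 2.92 TPM in WT (SD, n = 4 each), with overlapping groups and a log2 fold change of 0.14 (limma adjusted p = 0.285). The third, Adamts3, averaged 0.0950 TPM in Baf60a KO and 0.103 TPM in WT and was not tested.

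The remaining tested ADAMTS genes were not called. Adamts10 and Adamts6, which are linked to fibrillin microfibrils, had log2 fold changes of 0.05 and 0.15, with limma adjusted p of 0.770 and 0.484. Another 5 ADAMTS genes, among them Adamts13, which cleaves von Willebrand factor in blood, stayed at or under 0.24 TPM in every library.

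**Figure D3:**
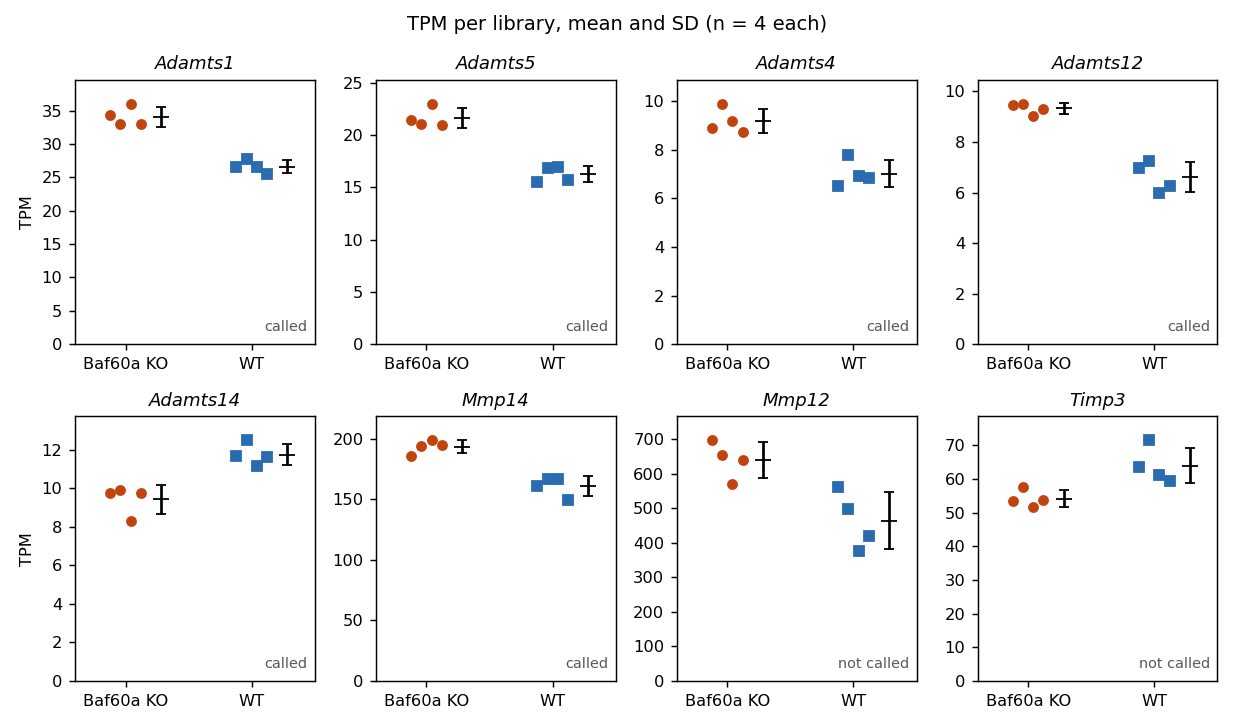
TPM per library of the 6 called members and of Mmp12 and Timp3, with Baf60a KO circles left of WT squares and the mean and SD beside each group (n = 4 each). In all 8 panels the groups do not overlap, and Adamts14 and Timp3 are the panels in which Baf60a KO lies below WT.

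Among the membrane-bound MMPs, Mmp14 rose. Mmp14, also called MT1-MMP, cleaves collagen at the cell surface and activates the MMP2 proform there with the help of TIMP2. It lies on chromosome 14 at 54431612 to 54445364 and had 185.90, 194.52, 198.75 and 195.10 TPM in Baf60a KO, against 161.23, 166.69, 166.85 and 149.86 TPM in WT. The groups did not overlap, and the log2 fold change was 0.26 with an SE of 0.045 (limma adjusted p = 0.0193). The call was lost without Baf60a KO replicate 2, 3 or 4, at adjusted p of 0.0624, 0.0627 and 0.0708. Mmp17, an MMP anchored in the membrane by a lipid, had 3.69 ± 0.250 TPM in Baf60a KO and 2.87 ± 0.460 TPM in WT (limma adjusted p = 0.127), and WT replicate 4, at 3.56 TPM, lay within the Baf60a KO range. Mmp16 was near 1.5 TPM in both groups, with a log2 fold change of 0.04. Mmp15 was the most abundant member that was not tested, at 0.598 TPM in Baf60a KO and 0.518 TPM in WT on average.

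The gelatinases, which degrade denatured collagen and basement membrane, were not called. Mmp2, the proform of which MMP14 activates, had 108 ± 3.23 TPM in Baf60a KO and 100.4 ± 3.87 TPM in WT, with a log2 fold change of 0.11 (95% interval 0.01 to 0.20, limma adjusted p = 0.170). Mmp9 had 2.41 ± 0.408 TPM in Baf60a KO and 2.75 ± 0.523 TPM in WT (limma adjusted p = 0.609). Both had overlapping groups.

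Mmp12, which degrades elastin, was not called but had the largest log2 fold change of any member above 0 on the log2(TPM + 1) scale. This rank depends on the pseudocount: with log2(TPM + 0.1), Adamts12 had 0.495 and Mmp12 had 0.478. Mmp12 lies on chromosome 9 at 7344381 to 7369499 and had 696.02, 654.26, 571.05 and 638.08 TPM in Baf60a KO, against 560.26, 498.55, 375.55 and 420.05 TPM in WT. Every Baf60a KO library was above every WT library, although the lowest Baf60a KO value exceeded the highest WT value by a small margin. The log2 fold change was 0.48 with an SE of 0.12 (95% interval 0.20 to 0.75, limma adjusted p = 0.0556). The lowest WT values were those of replicates 3 and 4, and without these libraries the log2 fold change was 0.27 (limma adjusted p = 0.105). Without WT replicate 1 alone the adjusted p was 0.0239. The longest matches of Mmp12 transcripts to other genes in a BLAST search covered 828 to 830 bases at 84.3% to 87.9% identity. The most abundant gene among these longest matches was Fgd4, at a mean of 5.34 TPM over all libraries. Further matches were not listed.

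Of the 2 tested collagenases, 0 were called. Mmp13, the main interstitial collagenase of rodents, had 10.33, 10.15, 13.35 and 10.05 TPM in Baf60a KO, against 9.28, 8.31, 8.77 and 9.29 TPM in WT (log2 fold change 0.26, limma adjusted p = 0.133). Mmp8, known as the neutrophil collagenase, had 1.86, 1.44, 1.5 and 1.93 TPM in Baf60a KO, against 2.47, 2.85, 2.28 and 2.17 TPM in WT (log2 fold change -0.36, limma adjusted p = 0.0757). Neither gene had overlapping groups. The neutrophil marker list, given beside Mmp8, had 5 of 9 genes tested and 0 called, with a median log2 fold change of -0.30. Its summed TPM was 149.6 to 242 in Baf60a KO and 199 to 293 in WT. S100a9, a calcium-binding protein of neutrophils and monocytes, was its most abundant gene, at 116 ± 20.8 TPM in Baf60a KO and 133 ± 24.6 TPM in WT, ahead of its partner S100a8, at 58.7 ± 12.9 TPM in Baf60a KO and 58.6 ± 11.98 TPM in WT (SD, n = 4 each). The part of this list in the values of Mmp8 was not tested.

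Other secreted or atypical MMPs were also not called. Mmp23, an unusual member tethered by its propeptide, had 81.7 ± 7.32 TPM in Baf60a KO and 70.5 ± 2.32 TPM in WT (log2 fold change 0.21, limma adjusted p = 0.0976). Mmp19 had 22.9 ± 0.568 TPM in Baf60a KO and 20.3 ± 1.25 TPM in WT (log2 fold change 0.17, limma adjusted p = 0.104). Both were higher in every Baf60a KO library than in any WT library. For Mmp19, 22.3% of the exon bases also lie in Tmem198b on the opposite strand, at 12.1 ± 0.445 TPM in Baf60a KO and 10.98 ± 0.508 TPM in WT. The sources used here do not say how the counting used strand, so reads from these bases cannot be assigned with certainty. Mmp11, which furin activates inside the cell, had 18.1 ± 1.15 TPM in Baf60a KO and 20.1 ± 1.24 TPM in WT (limma adjusted p = 0.240). Mmp27 and Mmp28 had log2 fold changes of -0.29 and -0.06, with limma adjusted p of 0.356 and 0.803. These 3 genes had overlapping groups.

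Of the 3 stromelysins and matrilysins, none passed the filter on low values. Mmp3 averaged 0.105 TPM in Baf60a KO and 0.0875 TPM in WT, and Mmp10 averaged 0.0725 TPM in Baf60a KO and 0.128 TPM in WT. Over all families, 19 members were not tested, the highest of their values was 0.71 TPM, and 15 averaged under 0.1 TPM in both groups. Adamts19, Mmp1b and Mmp21 were listed at 0 in every library.

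The inhibitors were among the most abundant members. Timp1, an inhibitor of most secreted MMPs, had 387 ± 17.5 TPM in Baf60a KO and 367 ± 34.2 TPM in WT, with overlapping groups (log2 fold change 0.08, limma adjusted p = 0.547). Timp2 had 411.65, 433.33, 449.23 and 403.88 TPM in Baf60a KO, against 384.23, 394.03, 396.34 and 374.73 TPM in WT. Its groups did not overlap, but the difference, 0.13 on the log2 scale, was not called (limma adjusted p = 0.116).

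Timp3, the matrix-bound inhibitor of ADAMTS enzymes, lay in the other direction. It had 53.53, 57.65, 51.77 and 53.72 TPM in Baf60a KO, against 63.69, 71.49, 61.22 and 59.55 TPM in WT. Every Baf60a KO library was below every WT library, and the log2 fold change was -0.23 with an SE of 0.063 (limma adjusted p = 0.0666), which is not a call. It was called under each of 3 other scalings, at adjusted p of 0.0244 with median-of-ratios, 0.0391 with quantile normalization and 0.0321 with TPM rescaled over protein-coding genes. Timp3 lies within Syn3, and 21.3% of its exon bases lie in exons of that gene on the opposite strand, which had 0.175 ± 0.0443 TPM in Baf60a KO and 0.165 ± 0.0695 TPM in WT. Timp4 was under 0.1 TPM on average in both groups.

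Summed TPM describes the share of transcripts, corrected for length, that each family took in a library, with no test. The sums use TPM as deposited and were not repeated under other scalings. The MMP sum was 1093 ± 34.9 TPM in Baf60a KO and 864 ± 82.9 TPM in WT (SD, n = 4 each), and the groups did not overlap. In WT it was 957 and 909 TPM in replicates 1 and 2, and 780 and 809 TPM in replicates 3 and 4. Mmp12 made up 58.5% ± 2.94 of that sum in Baf60a KO and 53.4% ± 4.42 in WT. Without Mmp12, the MMP sum was 453 ± 17.7 TPM in Baf60a KO and 400.3 ± 9.22 TPM in WT, again with no overlap. The ADAMTS sum was smaller, at 152 ± 3.87 TPM in Baf60a KO and 131 ± 6.94 TPM in WT, with no overlap. Its WT values were 135 and 139 TPM in replicates 1 and 2, and 126 and 124 TPM in replicates 3 and 4. The TIMP sum was 866 ± 36.1 TPM in Baf60a KO and 818 ± 46.6 TPM in WT, and these ranges overlapped. Timp1 and Timp2 together held 93.7% ± 0.318 of it in Baf60a KO and 92.2% ± 0.390 in WT. The ratio of MMP to TIMP sums overlapped between groups, at 1.26 ± 0.0803 in Baf60a KO and 1.06 ± 0.116 in WT. The ratio of the ADAMTS sum to Timp3, the TIMP known to inhibit ADAMTS enzymes, did not, at 2.81 ± 0.169 in Baf60a KO and 2.06 ± 0.0787 in WT. That separation was fixed by its parts and adds nothing to them. Every Baf60a KO library had a higher ADAMTS sum and a lower Timp3 than any WT library, and Timp3 was not called. Both ratios are of transcript abundance and say nothing of enzyme activity.

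**Figure D4:**
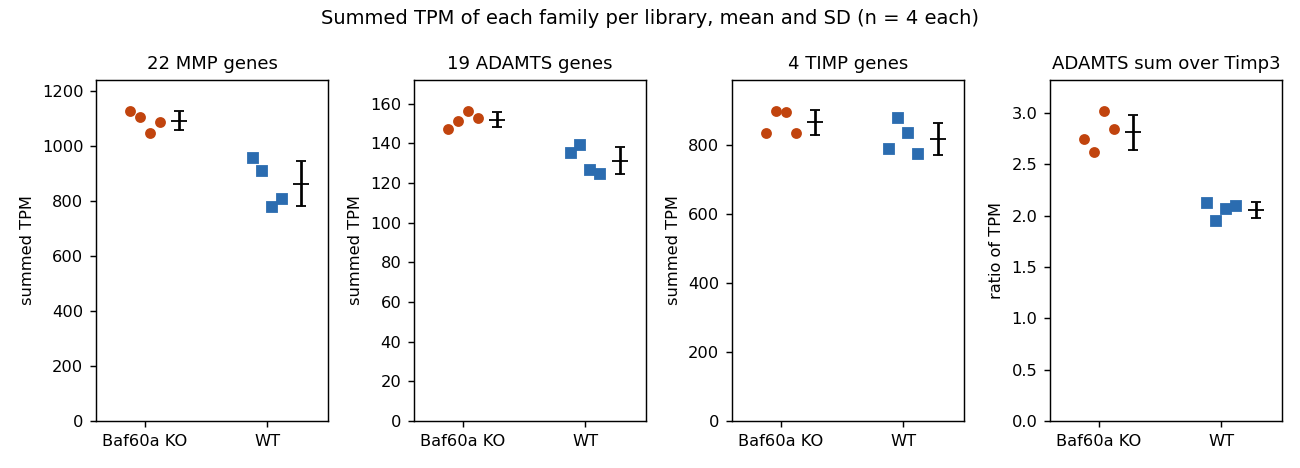
Summed TPM of the MMP, ADAMTS and TIMP genes per library and the ratio of the ADAMTS sum to Timp3, with Baf60a KO circles left of WT squares and the mean and SD beside each group (n = 4 each). The TIMP panel is the panel with overlapping groups, at 834 to 899 summed TPM in Baf60a KO and 775 to 877 in WT. Separation in the ratio panel follows from that of the ADAMTS sum and of Timp3.

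Part of the MMP family sits together in the genome. A cluster of 9 protein-coding MMP genes spans 427 kb of chromosome 9 (7272514 to 7699585), of which Mmp8, Mmp12, Mmp13 and Mmp27 were tested and 0 were called. Mmp12 and Mmp13 lay above 0 and Mmp8 and Mmp27 below 0, but without calls these signs do not settle whether genes of the cluster share a direction. Outside the cluster, 1 of 9 tested MMP genes was called.

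Promoter sequence was read from RefSeq (GRCm38.p6), 250 bases before to 50 bases after each start, for the 31 of 45 members in that table, and Adamts4 and Adamts5 were the called members without an entry. The AP-1 motif TGANTCA, read on both strands, occurred in 7 of the 11 promoter windows of the 9 genes of the chromosome 9 cluster, in 0 of the 23 windows of the other members and in 7.81% of 32851 promoters. TATAAA on the gene strand occurred in 7 of the 11 windows and in 2 of the 23, against 8.32% of all promoters. The SP1 motif GGGCGG, on both strands, occurred in 0 of the 11 windows and 18 of the 23, against 35.7%. Other motifs were searched on both strands, of which the ETS motif AGGAAG was in 15 of the 34 windows of members, against 35.4% of all promoters, and the RUNX motif TGTGGT in 6 of the 34, against 16.8%. The 4 called members with an entry, Adamts1, Adamts12, Adamts14 and Mmp14, had no AP-1 match, and 3 of them had an SP1 match, 2 an ETS match, and 1 each a TATAAA and a RUNX match.

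The promoters of Adamts1 (chr16:85803064-85803363, minus strand), Mmp14 (chr14:54431348-54431647, plus strand) and Mmp12 (chr9:7347124-7347423, plus strand, the second of 2 starts listed) are examples. They are printed 5′ to 3′ on the gene strand with matches to any of the 5 motifs in capitals, and in these windows no matches of different motifs overlap.
Adamts1: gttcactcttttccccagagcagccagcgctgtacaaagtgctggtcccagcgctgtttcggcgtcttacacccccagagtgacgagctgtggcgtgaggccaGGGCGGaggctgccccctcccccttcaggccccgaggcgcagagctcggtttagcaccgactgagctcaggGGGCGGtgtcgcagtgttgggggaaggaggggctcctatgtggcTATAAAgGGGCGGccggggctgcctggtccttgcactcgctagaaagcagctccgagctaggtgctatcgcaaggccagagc
Mmp14: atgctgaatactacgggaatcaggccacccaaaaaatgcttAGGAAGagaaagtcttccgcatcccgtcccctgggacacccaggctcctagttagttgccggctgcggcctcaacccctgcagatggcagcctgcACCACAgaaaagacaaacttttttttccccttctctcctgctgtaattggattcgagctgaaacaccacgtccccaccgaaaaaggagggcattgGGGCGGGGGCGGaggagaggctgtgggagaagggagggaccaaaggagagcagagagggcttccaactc
Mmp12: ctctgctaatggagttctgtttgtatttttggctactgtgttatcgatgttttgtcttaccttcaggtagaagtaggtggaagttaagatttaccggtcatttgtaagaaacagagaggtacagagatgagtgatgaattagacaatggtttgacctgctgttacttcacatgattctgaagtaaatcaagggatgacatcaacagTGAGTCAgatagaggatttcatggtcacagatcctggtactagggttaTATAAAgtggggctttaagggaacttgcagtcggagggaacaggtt
Positions are those of the first base of a match, negative before the start. In the Adamts1 window the TATAAA match begins at base -32 from the start and the SP1 matches at -147, -76 and -25. Mmp14 has an ETS match at -209, a RUNX match at -114 and adjoining SP1 matches at -19 and -13. In the printed window, Mmp12 has the AP-1 match TGAGTCA at -44 and a TATAAA match at 5, after the start. The window of the first Mmp12 start (chr9:7344147-7344446), not printed, has an ETS match at -87 and no AP-1, TATAAA, RUNX or SP1 match. These are matches of letters and not measured binding sites.

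Related genes were counted from lists of the same pathway, beside the 4.40% of all genes called higher and the 1.21% called lower. Of 15 tested matrix substrates, 4 rose, 0 fell and 11 were not called, with a median log2 fold change of 0.20. Thbs1, a matricellular protein cleaved by ADAMTS1, had 1953 ± 52.3 TPM in Baf60a KO and 1527 ± 84.0 TPM in WT, a log2 fold change of 0.36 (limma adjusted p = 0.00780). The fibrillar collagen genes Col1a1, Col3a1 and Col5a1 rose by 0.29, 0.34 and 0.26 on the log2 scale (limma adjusted p = 0.0131, 0.0270 and 0.0285). Thbs1 kept its call in every alternative run. Col5a1 lost it without any of the Baf60a KO libraries or WT replicate 4, at adjusted p of 0.0614 to 0.0929, Col3a1 without Baf60a KO replicate 2 or 4 or WT replicate 2 or 4, at 0.0532 to 0.0768, and Col1a1 without Baf60a KO replicate 4, at 0.0573. Without WT replicates 3 and 4, Col5a1 and Col3a1 were not called in limma, at 0.0705 and 0.0688. With no filter on low values, Col1a1, Col3a1 and Col5a1 were not called, at limma adjusted p of 0.0501, 0.0577 and 0.0583. Col3a1 and Col5a1 also lost the call with the replicate block, at 0.0852 and 0.0689, and Col5a1 with quantile normalization, at 0.0509.

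Genes that activate or restrain MMPs, such as furin, plasminogen activators and Reck, gave 0 calls among 12 tested, with a median of 0.16. Bsg, a surface protein known as an inducer of MMPs, had a log2 fold change of 0.12 (limma adjusted p = 0.145). Of 12 tested ADAM and ADAMTS-like genes 0 were called, with a median of 0.11. The most abundant, the membrane proteinases Adam8 and Adam15, had log2 fold changes of 0.11 and 0.14, with limma adjusted p of 0.518 and 0.202.

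Of 21 regulators of MMP transcription, 1 rose and 1 fell, and the median was 0.03. Tgfbr1, a receptor of TGF-beta, had 10.8 ± 0.640 TPM in Baf60a KO and 8.42 ± 0.616 TPM in WT (log2 fold change 0.33, limma adjusted p = 0.0333). Fosl1, an AP-1 subunit, had 13.7 ± 0.651 TPM in Baf60a KO and 18.8 ± 2.37 TPM in WT (log2 fold change -0.43, limma adjusted p = 0.0334). Neither call was stable. Tgfbr1 lost it in 7 of the 8 fits that left out 1 library (limma adjusted p = 0.0573 to 0.0980, WT replicate 2 being the exception) and Fosl1 in 7 of 8 (0.0601 to 0.0929, the exception being WT replicate 1), and without WT replicates 3 and 4 their adjusted p was 0.10003 and 0.0951.

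Markers of other cell types were counted in the same way, and in bulk RNA a change in cells of a type and a change in RNA per cell cannot be told apart. Of 12 fibroblast and stromal markers 11 were tested, 7 rose and 0 fell, with a median log2 fold change of 0.29. Their summed TPM was 7196 to 7567 in Baf60a KO and 6078 to 6701 in WT. Thy1, a surface glycoprotein of stromal and lymphoid cells, had 7.57 ± 0.837 TPM in Baf60a KO and 3.10 ± 0.200 TPM in WT, a log2 fold change of 1.06 (limma adjusted p = 0.000808). Pdgfrb, Postn and Fbln2, a receptor and 2 matrix proteins of stromal cells, rose by 0.43, 0.46 and 0.32. The calls of Thy1, Pdgfrb, Postn and Fbln2 held in every alternative run, while the count of 7 rises was 4 without Baf60a KO replicate 4. The substrate list shares Col1a1, Col1a2 and Col3a1 with this one.

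Of 6 smooth muscle and pericyte markers 4 were tested and 2 rose, the contractile genes Cnn1 and Acta2, by 0.96 and 0.45. The summed TPM was 2741 to 2898 in Baf60a KO and 2025 to 2302 in WT. Of 6 endothelial markers 5 were tested and 2 rose, Pecam1 and Emcn, by 0.59 and 0.61, with sums of 42.6 to 49.2 TPM in Baf60a KO and 33.1 to 42.5 TPM in WT. Cnn1 and Acta2 kept their calls in every alternative run. Pecam1 lost its call without WT replicates 3 and 4 (limma adjusted p = 0.0617) and Emcn without any Baf60a KO library or WT replicate 1 or 4 (0.0521 to 0.0944). Other defining markers of these cells did not pass the filter on low values: Lum of fibroblasts, Myh11 and Rgs5 of smooth muscle and pericytes, and Tek of endothelium. No marker on these lists was at 0 in all libraries. The part of stromal, smooth muscle and endothelial RNA in the values of Adamts1, Adamts4, Adamts5, Adamts12 and Mmp14 was not tested.

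Of the 10 macrophage markers 3 rose, 1 fell and 6 were not called, with a median log2 fold change of 0.26. Itgam and Cd68, an integrin and a lysosomal protein of macrophages, were among those that rose, by 0.44 and 0.29, and Lyz2, a lysozyme gene, fell by 1.05 on the log2 scale (limma adjusted p = 0.000195). Summed macrophage TPM was 4283 to 4629 in Baf60a KO and 5771 to 6708 in WT, a sum in which Lyz2 alone held 1927 ± 110.1 TPM in Baf60a KO and 3993 ± 248 TPM in WT. The 3 rises were all lost when any Baf60a KO library, WT replicate 2 or WT replicate 4 was left out.

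**Figure D5:**
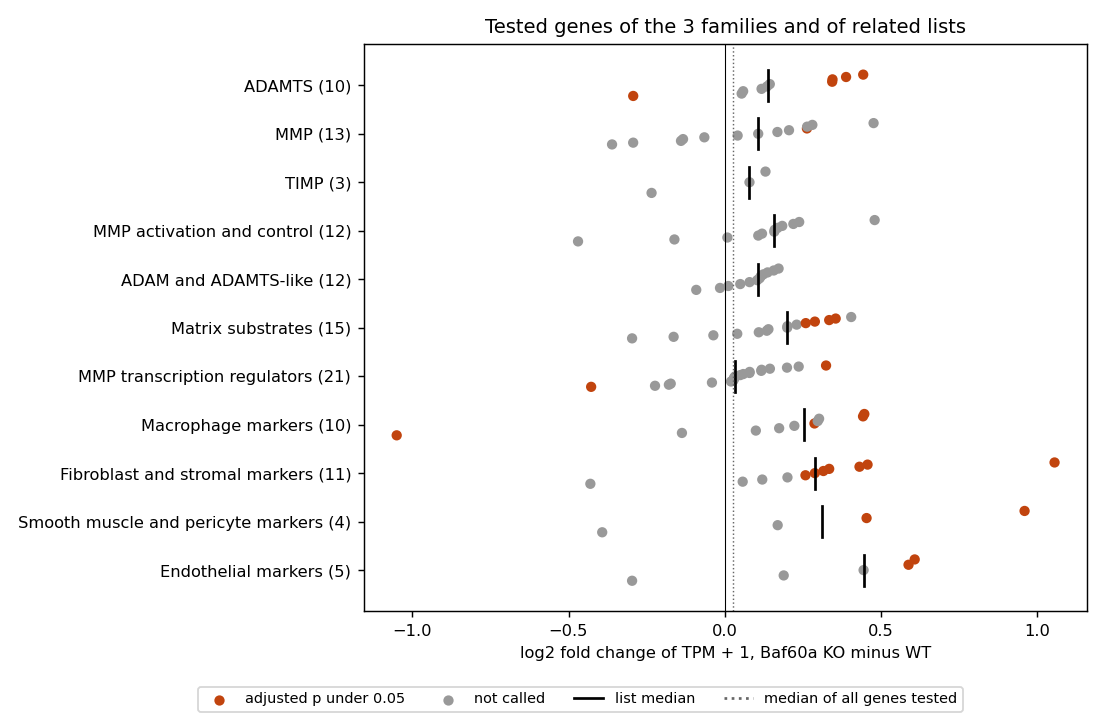
Log2 fold changes of TPM + 1 (Baf60a KO minus WT) of the tested genes of the 3 families, of related pathway lists and of cell type marker lists, with called genes coloured, a bar at each list's median and a dotted line at the median of all genes tested. Fibroblast and stromal markers have a median of 0.29 and the ADAMTS genes one of 0.14, and Lyz2 lies at -1.05.

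Other lists were small or low. Of 4 tested osteoclast markers 1 rose, Acp5, a phosphatase, by 0.57, while Atp6v0d2 had 204 ± 15.3 TPM in Baf60a KO and 241 ± 27.3 TPM in WT, Ctsk had 33.5 ± 2.01 TPM in Baf60a KO and 33.8 ± 2.36 TPM in WT, and Calcr was at 0 in all libraries. Of 2 tested dendritic cell markers 1 rose, the integrin Itgax, by 0.49, and Zbtb46, a transcription factor of these cells, had 1.79 ± 0.221 TPM in Baf60a KO and 2.04 ± 0.168 TPM in WT. Acp5 and Itgax lost their calls without any Baf60a KO library or WT replicate 2 or 4, at limma adjusted p of up to 0.0987 and 0.116. The only mast cell marker tested, Kit, was not called, at 0.968 ± 0.248 TPM in Baf60a KO and 1.15 ± 0.409 TPM in WT. The mast cell protease Cpa3 and the dendritic cell receptor Xcr1 did not pass the filter. None of the 6 lymphocyte markers, Nkg7 and Cd79a among them, was tested, and their sum was 0.15 to 0.31 TPM in Baf60a KO and 0.18 to 0.63 TPM in WT.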

How the data were processed

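RNA was sequenced from bone marrow derived macrophages in 8 libraries, 4 Baf60a KO and 4 WT, grouped by sample title. Per the labels' protocols, the NEBNext Ultra RNA kit was used. The submitters' processing notes name mm10, Salmon 1.2.0 and bcl2fastq, and the sources used here do not give the annotation or strand setting. The authors deposited TPM per gene, a unit read from column sums of 1000000. TPM is relative within a library and keeps no depth, so count-based tests were not run, although counts had been planned for where present. GENCODE M21 named 55154 of 55421 identifiers.

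The 13933 genes over 1 TPM in 4 or more libraries were compared as log2(TPM + 1), a scale that understates changes of low genes, with limma 3.58.1 in R 4.3.3 (group as the only term, a mean-variance trend, two-sided, Benjamini-Hochberg over all tested genes, calls at adjusted p under 0.05). "Rose" and "fell" refer to calls, and fold changes are Baf60a KO minus WT. Steps were tested on simulated data. The labels do not name mice or cultures, and p-values therefore measure only the spread between these libraries, which may be technical. Members and lists were chosen with earlier results of these data known. Named were all tested members, untested members averaging at least 0.1 TPM in a group, and per list up to 4 called genes with the smallest adjusted p or, with fewer than 2 called, up to 2 abundant others. Some genes this rule gave are not reported here. Untested members and marker genes at low levels named beyond this were chosen after their values were seen.

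Alternatives covered pseudocount, filter, variance model, library weights, scaling, a replicate block, leaving out each library and leaving out WT replicates 3 and 4. Coding sequences came from GENCODE M21, promoters from RefSeq (GRCm38.p6), and transcript similarity from BLAST 2.17.0. Python 3.11.15 with Biopython 1.88 read sequences.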

Additional observations from a re-analysis of the deposited data

Results flagged for a closer look

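Within groups of 4 libraries, 58 sets of values (each tested member and each family sum, in each group) were examined for a library far from the others by Dixon's test at its 95% critical value, and 6 exceeded it. Chance gives about 1 in 20. Adamts14, the member that fell, had 8.28 TPM in Baf60a KO replicate 3, against 9.74 to 9.89 TPM in the other Baf60a KO libraries, which put this library farther from WT. Mmp13 had 13.35 TPM in the same library, against 10.05 to 10.33 TPM in the others. Adamts2 had 34.05 TPM in Baf60a KO replicate 1, against 37.66 to 38.08 TPM in the others. Among WT libraries, Adamts7 had 4.01 TPM in replicate 2, against 1.94 to 2.23 TPM in the others, Mmp17 had 3.56 TPM in replicate 4, against 2.59 to 2.69 TPM, and Mmp27 had 8.37 TPM in replicate 3, against 5.53 to 5.95 TPM.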

How the results depend on the processing

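TPM hides read depth and replicates are 4 a group, which limits what can be called. Over all genes, 782 were called, and 364 with no filter on low values, 209 with a replicate block, 372 without WT replicates 3 and 4, and 156 to 679 when 1 library was left out. Higher calls numbered 613, and 292, 146 and 201 in the same 3 alternatives and 120 to 532 with 1 library left out. Lower calls numbered 169, and 72 with no filter, 63 with the block, 404 with median-of-ratios scaling, 254 with quantile normalization, 321 with TPM rescaled over protein-coding genes, and 36 to 235 with 1 library left out. Scaling moved the median log2 fold change of all genes from 0.027 to -0.007 with median-of-ratios, 0.0004 with quantile normalization and 0.003 with rescaling over protein-coding genes. The median of the tested members moved from 0.12 to 0.09, 0.099 and 0.10 in the same order.

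Members called numbered 6, and 3 to 5 with 1 library left out (3 without Baf60a KO replicate 2, 3 or 4), with 3 to 5 higher and 0 lower. The lower member was 0 with no filter, with library weights, with the block and without WT replicates 3 and 4, and lower members were 3 with median-of-ratios (9 members called in all), 2 with quantile normalization and 2 with rescaling. Of 494 alternative member fold changes, 457 kept direction and call, 25 lost the call, 9 gained it and 3 changed sign: Adamts7 (-0.009) and Adamts10 (-0.011) without WT replicates 3 and 4, and Mmp16 (-0.005) with quantile normalization. Mmp12 was called at adjusted p of 0.0351 with weights, 0.0414 with the block, 0.0480 with median-of-ratios and 0.0434 with rescaling, and Mmp8 at 0.0470 with median-of-ratios, all in limma.

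Of 584 alternative fold changes of list genes, 479 kept direction and call, 97 lost the call and 8 changed sign. Adam8 was -0.028 without WT replicates 3 and 4, S100a8 was 0.036 with weights and -0.117 to 0.143 with 1 library left out, and Ctsk was -0.052 to 0.034 with 1 library left out. The cause of these changes was not tested. Over all tested genes, same-numbered libraries did not deviate together (correlations -0.113 to 0.0124), and no Baf60a KO library matched its own number best. The labels do not say whether the numbers pair the libraries. These correlations cannot settle it, since a pairing that shows in few genes would be missed. With the replicate block, Adamts4, Mmp14 and Adamts14 had adjusted p of 0.0581, 0.0591 and 0.0752.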
